A study of Homo sapiens with 18 samples.

Results

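The change in the effect of 5-fluorouracil (5-FU) on repeat RNA between 6 h and 24 h was measured in human lung fibroblasts of the established line IMR90. It was taken as the log2 ratio of 5-FU to DMSO at 24 h minus the same ratio at 6 h, at every repeat copy and for the sum over all copies of each repeat name. It rests on 8 of the 18 libraries of the series, namely 5-FU at 375 µM for 6 h and for 24 h, and a DMSO control of matching volume at each of these times, with 2 libraries in each of the 4 groups. The cells carried no transgene or knockdown that the labels name. Libraries of 5-FU and DMSO at 12 h, of untreated cells given fresh medium 12 h before extraction, and of Nutlin at 5 µM for 6 h with its own DMSO control are not part of the difference, and their values are given beside it. Nothing says that the 2 libraries of a group came from separate cultures, so p-values measure the spread between these libraries only. Of the 2404193 copies in the table, 63602 passed the filter on low counts and are called loci here. Of 1113 repeat names, 1078 passed. The table lists no genes, so markers of fibroblasts or of other cells could not be read.

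5-FU is an antimetabolite that blocks thymidylate synthase and is built into RNA, and cells treated with it accumulate p53. Nutlin raises p53 by another route, by keeping MDM2 from binding it. Repeat copies are read by sequencing either as transcripts of their own or as stretches of longer transcripts that run across them. Alu elements and MIR are short interspersed elements, L1 and L2 are long ones, and ERV and MaLR elements are remnants of retroviruses and their relatives. SVA is a young composite element. BC200, the Y RNAs (HY1, HY3), tRNA and 5S rRNA are small RNAs made by RNA polymerase III.

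The 8 libraries held 4816706 to 6290320 counts. Structural RNA (rRNA, tRNA and small RNA) took 31.7% to 43.7% of a library. It was 43.7% in replicate 1 and 33.8% in replicate 2 of 5-FU at 24 h, and the log2 counts of these replicates correlated across loci at r = 0.761, against 0.830 to 0.859 in the other groups. By chi-square per degree of freedom the DMSO replicates at 6 h were farther apart (8.90) than those of 5-FU at 24 h (8.23).

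Where the effect of 5-FU differed between 6 h and 24 h, it was mostly lower at 24 h. At 245 loci, 0.385% of those tested, the effect at 24 h differed from the effect at 6 h (edgeR quasi-likelihood test, adjusted p under 0.05). It was lower at 24 h at 190 loci (0.299%) and higher at 55 (0.0865%). The smallest called difference was 1.37 on the log2 scale, and the median SE was 0.503 at called loci against 0.974 at all loci. On simulated counts, 21.6% of 51 locus calls at this threshold were false, so the false share may exceed the threshold here too. The count rested on single libraries. It was 555 without replicate 1 of 5-FU at 24 h, 124 and 142 without replicate 1 or 2 of 5-FU at 6 h, 128 and 122 without replicate 1 or 2 of DMSO at 6 h, and 125 without replicate 1 of DMSO at 24 h. Without replicate 2 of 5-FU at 24 h it was 234, but with 104 higher and 130 lower. In each of these fits at least 244 of the 245 loci kept their sign.

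The 2 times were far apart in number of calls. At 6 h, 64 loci (0.101%) differed between 5-FU and DMSO, 57 of them higher (0.0896%). At 24 h, 2693 loci (4.23%) did, 1536 higher (2.42%) and 1157 lower (1.82%). Most calls at 24 h alone were not calls of a difference between times: of the 2693, 232 (8.61%) were also among the 245. Both times shared 56 called loci, and at 52 of these the change in the effect was not called, although the effect was larger at 24 h at 43 of the 56 (median absolute log2 2.18 at 6 h and 2.79 at 24 h).

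The 245 loci were sorted by their effects at both times. Late-only means called at 24 h with an unadjusted p of 0.05 or more at 6 h. Growing means called at 24 h, of the same sign and smaller at 6 h with an unadjusted p under 0.05, and early-only means called at 6 h with an unadjusted p of 0.05 or more at 24 h. Late-only loci made up 196 of the 245, with 170 lower and 26 higher. There were 13 growing loci, of which 9 were higher and 4 lower, and 3 early-only loci. A further 24 loci had effects of opposite sign at the 2 times, 9 fell under none of these patterns, and none had an effect that was called at 6 h and smaller but still present at 24 h. In 52 of the 245, at least 1 of the 4 groups had 3 counts or fewer in both libraries, and for these counts or bounds are given in place of fitted folds.

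**Figure D1:**
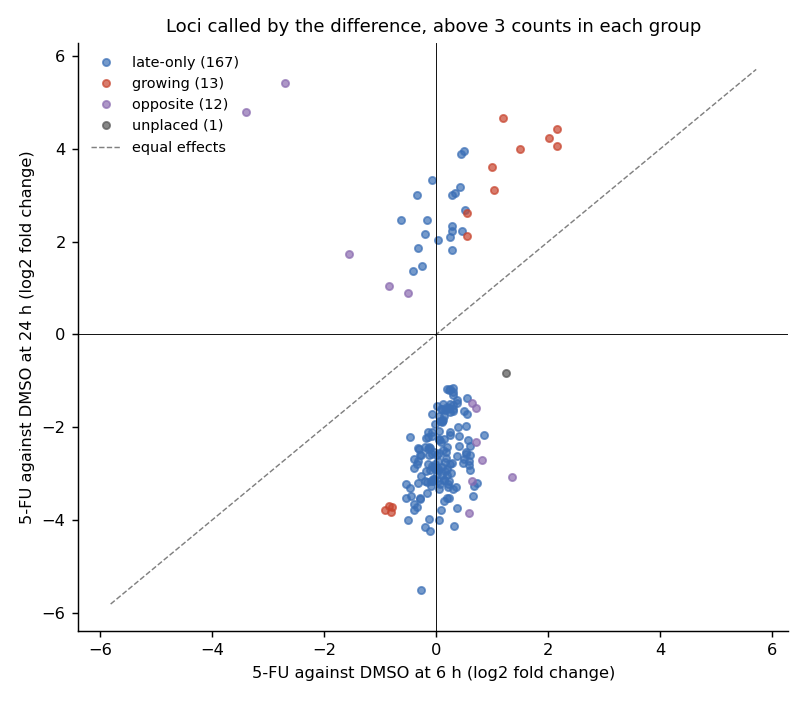
Log2 fold change of 5-FU against DMSO at 6 h (x axis) and at 24 h (y axis) for the 193 called loci with more than 3 counts in at least 1 library of each group, coloured by pattern. The late-only loci lie along the vertical axis with 6 h effects near 0, mostly at the bottom, and the growing loci lie off it on the same side at both times. Loci were picked by the difference between the axes, so their distance from the dashed line of equal effects is not a finding. They were sorted by both effects, so the place of each pattern is not a finding either.

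Late-only loss is shown best by an AluSx copy on chromosome 2 (10270758 to 10271040, hg19), the locus with the smallest p. It held 48.7 and 47.6 CPM, which are counts scaled to a common library size with TMM, in DMSO at 6 h, 50.4 and 49.2 in 5-FU at 6 h, 88.2 and 80.3 in DMSO at 24 h, and 6.02 and 4.65 in 5-FU at 24 h. The 5-FU libraries at 24 h were thus far below all others, while DMSO at 24 h was above DMSO at 6 h. The effect at 24 h was lower than that at 6 h by a log2 difference of -4.04 (SE 0.32, n = 2 per group, edgeR adjusted p = 6.03e-07). In libraries outside the difference, the copy was at 121 and 120 CPM in untreated cells, 45.6 and 60.4 in DMSO at 12 h, and 22.3 and 20.3 in 5-FU at 12 h. Its loss was therefore already present at 12 h (log2 -1.31), and Nutlin at 6 h also lowered it (log2 -1.80).

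An L1PA15 fragment, from an L1 family of primates, on chromosome 11 (58893817 to 58894870) had 37.7 and 45.9 CPM in DMSO at 6 h, 36.6 and 33.1 in 5-FU at 6 h, 85.2 and 83.3 in DMSO at 24 h, and 3.01 and 0.929 in 5-FU at 24 h. The groups did not overlap at 24 h, and the difference was -5.25 (SE 0.41, edgeR adjusted p = 6.03e-07). Nutlin lowered this copy too, by a log2 fold change of -4.54. An SVA_D copy on chromosome 2 (27017556 to 27018306) was lost to the limit of detection: its counts were 25 and 23 in DMSO at 6 h, 20 and 40 in 5-FU at 6 h, 96 and 76 in DMSO at 24 h, and 0 and 0 in 5-FU at 24 h. Against a floor of 3 counts per library it was at least 26.8-fold lower than DMSO at 24 h.

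Across the 170 late-only loci that fell, both arms of the comparison moved. Over the 147 of them above the floor, the median 5-FU level was lower at 24 h than at 6 h by a log2 change of -1.84, and the median DMSO level was higher at 24 h than at 6 h by 0.90. Over all 170, with low groups set at their bound, the medians were -1.91 and 0.88. In the 5-FU libraries alone, 143 of the 170 were called lower at 24 h than at 6 h, where 1.48% of all loci were. In the DMSO libraries alone 4 were called higher, where 0.044% were, and both DMSO libraries at 24 h lay above both at 6 h at 149 of the 170, where 22.1% of all loci did. These counts use the libraries that chose the loci and are a description only.

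Untreated libraries are no arm of the difference, although they entered the filter and the estimate of the spread. The median late-only lower locus stood at 26.4 and 27.5 CPM in the untreated libraries, 11.3 and 12.1 in DMSO at 6 h, 21.2 and 19.4 in DMSO at 24 h, 11.8 and 12.0 in 5-FU at 6 h, and 3.01 and 2.48 in 5-FU at 24 h. DMSO at 6 h was thus below untreated cells at these loci, and DMSO at 24 h lay between. The untreated libraries stood above DMSO at 6 h by a median log2 of 1.23 and 1.25, against -0.08 and -0.11 over all loci. A low level in DMSO at 6 h favours a negative difference, so the loci were picked in part for it. These values are a description only. Whether time since the change of medium or growth moved these levels was not tested.

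**Figure D2:**
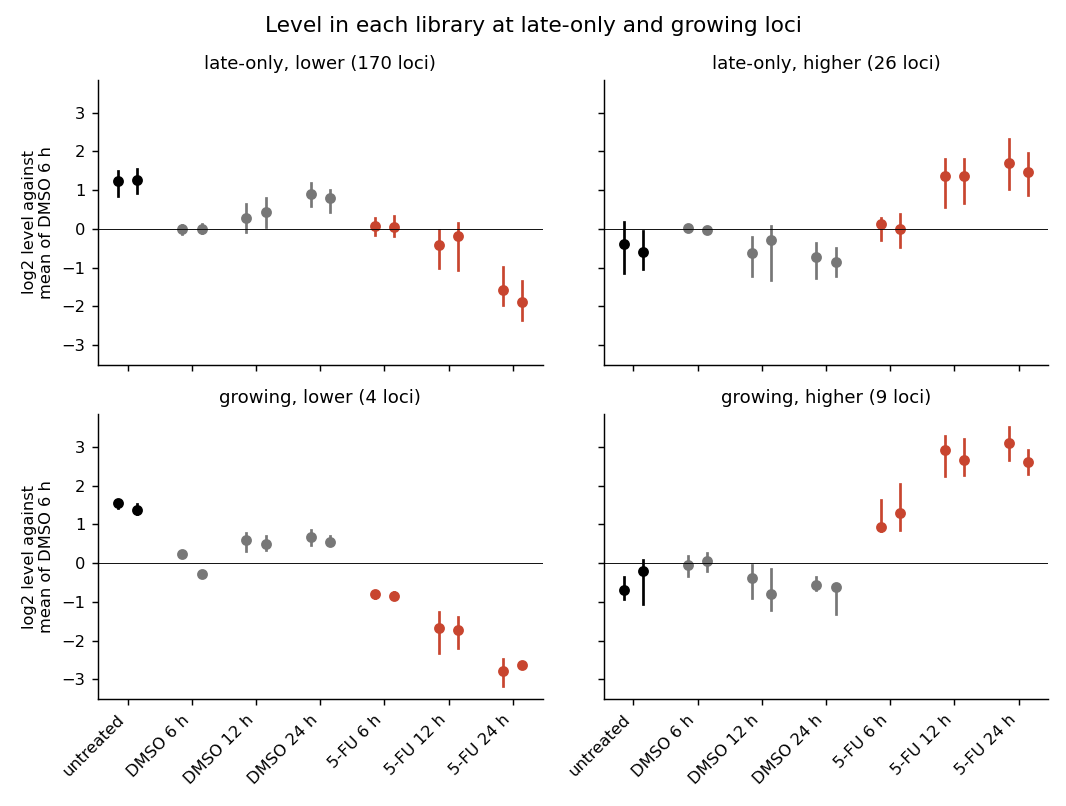
Level in each library at late-only and growing loci, as log2(CPM + 0.5) against the mean of DMSO at 6 h (y axis), by group (x axis, 2 libraries each). Points are medians over loci and bars run from the 25th to the 75th percentile. At the 170 late-only lower loci the DMSO libraries stand at 0.91 and 0.79 at 24 h and the 5-FU libraries at -1.58 and -1.90.

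The 12 h libraries are no arm of the difference either, but they too entered the filter and the estimate of the spread, whereas the Nutlin table was fitted apart. At 12 h, 61 of the 170 were called lower and 2 higher, against 4.27% and 5.44% of all loci, and 144 of the 170 had a negative 12 h effect (median log2 -0.65 over the 147). The 170 had a median level of 11.7 CPM over the 8 libraries, against 2.08 for all loci tested. Changes are easier to call at higher levels, and the shares here and for Nutlin were not matched for level. The DMSO libraries at 12 h were the shallowest of the table (2412334 and 2540089 counts), and their part in these 12 h values was not tested. With the 8 libraries fitted alone, 135 loci were called, 128 of them among the 245. Of the late-only lower loci of that fit, 95 were tested at 12 h, where 36 were called lower and 4 higher and 79 had a negative effect (median -0.85). Their median level in the untreated libraries was 34.8 and 33.8 CPM, against 13.7 and 13.7 in DMSO at 6 h, which helped pick them. In the Nutlin table, 166 of the 170 were tested, and 99 were called lower and 5 higher, where 4.21% of all loci tested there were lower and 5.36% higher. Their median Nutlin effect was -0.92. That table holds 2 untreated columns with identical values, used as 1 column in the scaling and the fit but not in the filter or the comparison. With the Nutlin and DMSO libraries alone 98 were called lower and 5 higher. Most of the loci that fell late under 5-FU were thus lower within 6 h of Nutlin. The effects of the 2 drugs at 6 h were measured in different tables and their difference was not tested.

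Late-only gain was rarer. The leading copy was FLAM_C, a free left Alu monomer, on chromosome 16 (67844891 to 67845026). It held 351 and 319 CPM in DMSO at 6 h, 372 and 441 in 5-FU at 6 h, 209 and 193 in DMSO at 24 h, and 1895 and 1327 in 5-FU at 24 h. Of these 8 libraries those of 5-FU at 24 h were the highest and those of DMSO at 24 h the lowest, and the difference was 2.72 (SE 0.31, edgeR adjusted p = 0.00013). At 12 h the copy was at 112 and 106 CPM in DMSO and 996 and 1218 in 5-FU. Nutlin gave a log2 fold change of 0.03 (edgeR adjusted p = 0.90).

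A MIRb copy on chromosome 6 (26139020 to 26139141) had 28.9 and 24.4 CPM in DMSO at 6 h, 26.1 and 28.7 in 5-FU at 6 h, 17.6 and 14.5 in DMSO at 24 h, and 78.8 and 53.6 in 5-FU at 24 h, a difference of 2.00 (SE 0.34). A 5S rRNA copy on chromosome 11 (124506355 to 124506444) reached 44.5 and 28.5 CPM in 5-FU at 24 h and was at 2.79 to 10.3 in the 6 other libraries, a difference of 3.34 (SE 0.67). That call was lost in 6 of 19 alternatives. The copy held 21.8% of its sum with 28 copies alike in name, label numbers and length, where replicate 1 of DMSO at 24 h had 1738 counts and the difference was -2.17 (SE 0.92, edgeR adjusted p = 0.539). Of the 26 late-only higher loci, 19 were called higher at 12 h already, against 5.44% of all loci. Nutlin raised 1 of the 17 tested, where 5.36% of all loci tested with it were raised, so this count is near that share. At these 26 loci, too, the DMSO controls moved against the drug: both were lower at 24 h than at 6 h at 23 of 26, where 21.7% of all loci did so. The DMSO libraries are part of the difference that picked these loci, so this is a description only.

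Growing loci were sorted by an effect of the same sign at 6 h, so the presence of that effect is not a finding. Of these loci, 3 of the 9 higher and 0 of the 4 lower were called at 6 h. BC200 on chromosome 2 (47562454 to 47562653), an Alu-derived small RNA best known from neurons, was by far the most abundant. It had 2438 and 2599 CPM in DMSO at 6 h, 3651 and 3695 in 5-FU at 6 h, 2235 and 2083 in DMSO at 24 h, and 15938 and 10665 in 5-FU at 24 h. At 12 h it had 973 and 1083 CPM in DMSO, below DMSO at 6 h and at 24 h, and 9895 and 12152 in 5-FU. The log2 effect was 0.54 at 6 h, 3.42 at 12 h and 2.62 at 24 h, and the larger value at 12 h went with the lower DMSO level there. The difference between 24 h and 6 h was 2.08 (SE 0.36, edgeR adjusted p = 0.00621). The replicates of 5-FU at 24 h were apart by more than those of any other group at this copy.

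An ERVL-B4-int copy on chromosome 16 (88456368 to 88456738), an internal part of an endogenous retrovirus, had 6.66 and 10.9 CPM in DMSO at 6 h, 41.4 and 37.6 in 5-FU at 6 h, 4.68 and 3.27 in DMSO at 24 h, and 106 and 66.9 in 5-FU at 24 h. Its difference was 2.28 (SE 0.41). The L1MB7 fragment beside it (88455450 to 88455994) went from 17.9 and 13.7 CPM in DMSO and 63.2 and 78.1 in 5-FU at 6 h to 8.05 and 10.5 in DMSO and 188 and 123 in 5-FU at 24 h, a difference of 1.90 (SE 0.37). Over the 9 growing higher loci the median effect was 1.20 at 6 h, 3.42 at 12 h and 4.01 at 24 h. At 12 h 9 of 9 were called higher, against 5.44% of all loci. Of the 6 tested with Nutlin, 1 was called higher, where 5.36% of all loci tested with it were.

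The 4 growing lower loci had a median effect of -0.83 at 6 h, -2.79 at 12 h and -3.75 at 24 h. The AluSx1 copy on chromosome 17 (38458596 to 38458907) had 13.1 and 13.1 CPM in DMSO and 6.43 and 8.74 in 5-FU at 6 h, then 19.5 and 20.1 in DMSO and 1.16 and 1.70 in 5-FU at 24 h. Its difference was -2.94 (SE 0.44). For a MIRb copy on chromosome 1 (68939919 to 68940060) the difference was -3.01 (SE 0.46), and for an L1M5 copy on chromosome 10 (96372885 to 96373715) it was -2.86 (SE 0.55).

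No early-only locus had counts in all 4 groups. An L1HS copy, of the youngest human L1 family, on chromosome 11 (78388818 to 78394847) had counts of 31 and 385 in DMSO at 6 h, 0 and 0 in 5-FU at 6 h, 0 and 12 in DMSO at 24 h, and 2 and 33 in 5-FU at 24 h. An L1MB7 copy on chromosome 15 (32757808 to 32758111) had 0 and 0, 28 and 21, 33 and 23, and 22 and 35 in the same order, and an AluSq2 copy on chromosome 20 (54963586 to 54963890) had 0 and 0, 13 and 36, 37 and 29, and 30 and 20. In both the single empty group of these 4 was DMSO at 6 h, while 5-FU held 13 to 36 counts at 6 h and 24 h. At 12 h, outside the difference, 1 of these 2, the L1MB7 copy, was also called higher under 5-FU.

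Opposite effects had 2 forms. Among loci with counts in all groups, an AluSz copy on chromosome 1 (36201539 to 36201841) was at 9.58 and 10.5 CPM in DMSO at 6 h, 16.3 and 13.9 in 5-FU at 6 h, 22.3 and 21.8 in DMSO at 24 h, and 1.85 and 1.24 in 5-FU at 24 h. It was slightly higher under 5-FU first and far lower later, a difference of -4.43 (SE 0.43, edgeR adjusted p = 1.79e-05). An L1PB1 copy on chromosome 1 (144980349 to 144981722) did the reverse, with 11.0 and 6.44 CPM in DMSO and 3.21 and 2.66 in 5-FU at 6 h, then 11.2 and 11.7 in DMSO and 41.5 and 35.5 in 5-FU at 24 h, a difference of 3.31 (SE 0.53). The other form was a copy with counts in some groups and none in others, described next.

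Some copies that went between many counts and none had a partner, alike in repeat name, in the 2 numbers of its label and in length, that held counts where they had none. No sequences of the copies were compared. An LTR12C copy on chromosome 8 (12060066 to 12061429) had counts of 29 and 28 in DMSO at 6 h, 15 and 18 in 5-FU at 6 h, 0 and 0 in DMSO at 24 h, and 17 and 33 in 5-FU at 24 h, and was called late-only higher. Its partner in these 3 respects lies on the same chromosome (12302340 to 12303703). That copy had 31 and 33 counts in DMSO at 24 h and 0 in the other 6 libraries, and when such alike copies were summed the difference was 0.10 (SE 0.55, edgeR adjusted p = 0.992).

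An L1ME3A copy on chromosome 2 (87913445 to 87914196) showed the same exchange within replicates. It had 39 and 94, 72 and 3, 0 and 0, and 46 and 90 counts in DMSO at 6 h, 5-FU at 6 h, DMSO at 24 h and 5-FU at 24 h. Its partner (112093733 to 112094484) had 1 and 2, 0 and 79, 31 and 51, and 0 and 4, and the sum had a difference of 0.54 with an adjusted p of 0.867. Both pairs were chosen after their values were seen. Of the 52 loci with an empty or nearly empty group, 27 had alike copies with counts. In 22 of these the alike copies held more than 3 counts in each group where the locus was low, and 1 of the 22 was still called once the copies were summed. These 22 were picked because alike copies filled their low groups, so their lost calls are a description only, and some sums take in many copies. The AluSq2 copy on chromosome 20 held 3.60% of its sum with 148 alike copies. How reads that fit several copies were placed is not given in the sources used here, so at these loci the position of the change is uncertain. Of the 170 late-only lower loci 72 had alike copies with counts, and 38 of those 72 were still called in the summed fit. The same held for 3 of the 9 such late-only higher loci and for 1 of the 3 such growing loci. Sums over full-length Alu forms blend unrelated copies, so a lost call there does not show an exchange.

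**Figure D3:**
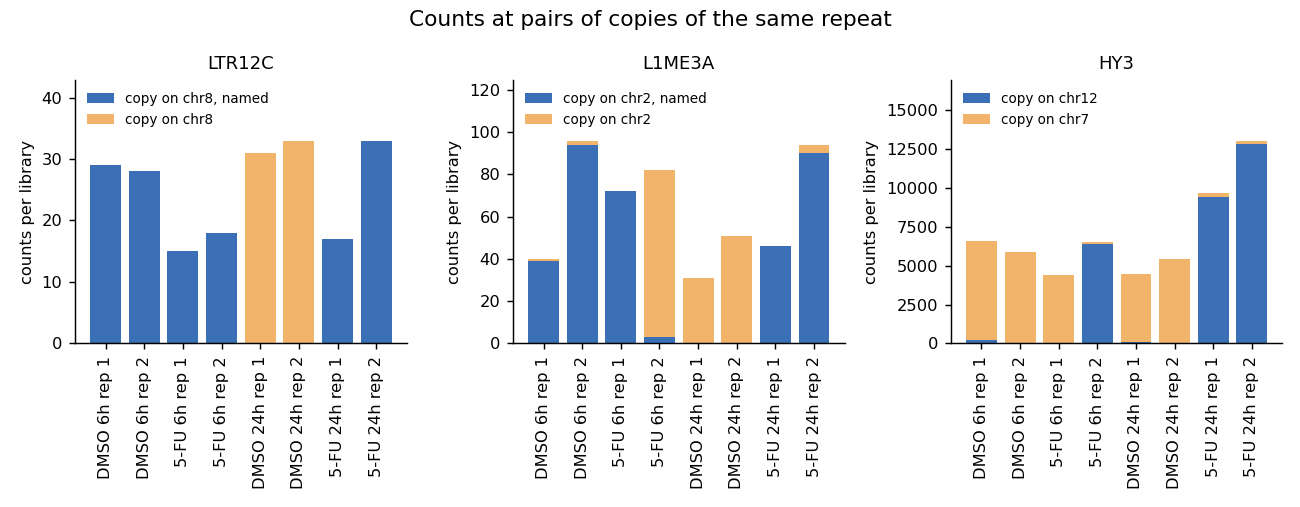
Counts in each of the 8 libraries (x axis) at pairs of copies of LTR12C, L1ME3A and HY3, stacked by copy (y axis, counts). In LTR12C and L1ME3A the named copy is empty in DMSO at 24 h, where its partner holds the counts, and in HY3 the copy on chromosome 12 replaces the copy on chromosome 7 in 5-FU at 6 h replicate 2 and in both 5-FU libraries at 24 h.

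Many of the called loci that fell lay within 100 kb of another. With loci of the same direction joined where they were within 100 kb, the 190 lower loci formed 111 neighbourhoods, and 34 of these held 2 or more, with 113 of the 190 loci (59.5%). The 55 higher loci formed 47, of which 5 held 2 or more, with 13 loci (23.6%). A smaller set has fewer neighbours by number alone, so the 2 shares are not compared. No such share was taken for the loci tested. Loci of a neighbourhood are not independent, so 245 loci stand for fewer events. No copy was placed in or outside a gene here.

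The largest neighbourhood spans 11.3 kb of chromosome 10 (96362459 to 96373715) and holds copies of L1, L2, Alu, MIR and a DNA transposon. It had 11 called loci, picked for a negative difference, and 33 of its 33 tested loci had one. Over all loci above the floor the median difference was 0.04. The median effect over those 33 was -0.64 at 6 h, -2.71 at 12 h and -3.63 at 24 h. Nutlin lowered 9 of the 11, against 4.21% of all loci tested with it. Its leading copy, an L2 (96362610 to 96362905), had 21.6 and 13.3 CPM in DMSO and 13.3 and 13.1 in 5-FU at 6 h, then 23.8 and 26.2 in DMSO and 2.08 and 1.55 in 5-FU at 24 h, a difference of -3.39 (SE 0.45).

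Neighbourhoods differed in when they fell. The one on chromosome 17 (57279051 to 57283746) holds 8 called Alu copies of 11 loci tested, and its median effect was 0.25 at 6 h, 0.38 at 12 h and -1.60 at 24 h. Its leading AluSq2 copy (57279051 to 57279350) was at 22.6 and 21.0 CPM in DMSO and 37.9 and 46.8 in 5-FU at 12 h, so it was higher under 5-FU at 12 h (log2 0.95, edgeR adjusted p = 0.010) and lower at 24 h (log2 -1.67). The one on chromosome 12 (105414251 to 105417499) had fallen by 12 h, with medians of -0.05, -2.00 and -2.58, and its DMSO libraries hardly moved (median -0.18). It is also the exception under Nutlin, which raised 5 of its 6 called loci, against 5.36% of all loci tested with it. Its L2a copy (105414778 to 105415093) had 33.3 and 33.4 CPM in DMSO at 6 h, 33.0 and 35.5 in 5-FU at 6 h, 29.8 and 28.7 in DMSO at 24 h, and 5.79 and 3.25 in 5-FU at 24 h, a difference of -2.77 (SE 0.39), against a Nutlin effect of 0.91.

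In the other 7 neighbourhoods with 4 or more called loci, on chromosomes 1, 5, 8, 15, 18, 19 and 20, median effects were -0.23 to 0.41 at 6 h and -3.82 to -1.44 at 24 h. Each of their tested loci had a negative difference. Called loci, picked for that sign, were all of those tested on chromosomes 1, 18 and 19 and 5 of 12 on chromosome 15. The shared sign is thus in part set by the choice of loci. On chromosome 19 (11256181 to 11257775) the leading AluSp copy had 22.7 and 27.5 CPM in DMSO and 25.3 and 27.8 in 5-FU at 6 h, then 59.2 and 50.8 in DMSO and 5.79 and 2.48 in 5-FU at 24 h. At 12 h it was at 16.3 and 22.9 in DMSO and 17.3 and 26.7 in 5-FU, where no loss was visible. Nutlin lowered 5 of 5 called loci on chromosome 20 (25426850 to 25429403) and 0 of 5 on chromosomes 8 and 15, against 4.21% of all loci tested with it.

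**Figure D4:**
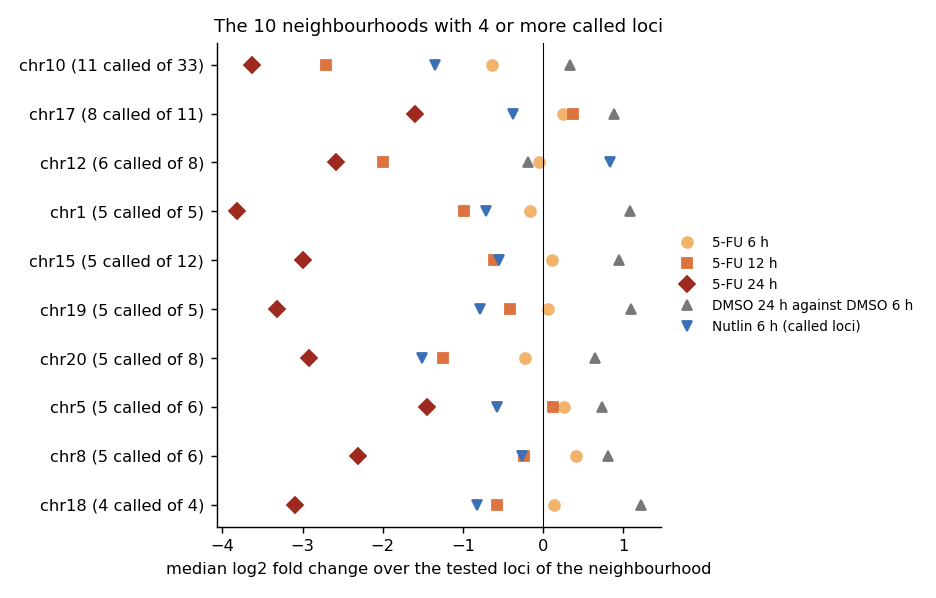
Median log2 fold change (x axis) in the 10 neighbourhoods with 4 or more called loci (y axis), for 5-FU against DMSO at 6, 12 and 24 h and DMSO at 24 h against 6 h over the tested loci, and for Nutlin over the called loci. The 24 h medians run from -3.82 to -1.44, and chromosome 12 is the neighbourhood with a Nutlin median above 0 (0.84).

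Among the higher loci, 3 of the 9 growing ones lay side by side on chromosome 16 (88455450 to 88456738), with median effects of 2.16, 4.39 and 4.06 at 6, 12 and 24 h. Copies of L1PA4, MER61-int and MER61A on chromosome 5 (110901287 to 111002802) formed another group, with medians of 0.80, 2.55 and 3.60. MER61 and LTR10 are retroviral repeats known to carry p53 binding sites. Of their 132 loci tested, 2 were called higher (1.52%, against 0.0865% of all loci) and 1 lower (0.758%, against 0.299%), and these shares were not tested. The 2 higher ones are the MER61-int and MER61A copies of this 1 group, so they are not independent. The lower one is an LTR10B1 copy on chromosome 6 (27841261 to 27841298).

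By class, Alu copies gave 88 of the 190 lower loci, 0.513% of the 17170 Alu loci tested. That is 46.3% of the lower loci, where Alu made up 27.0% of loci tested, and many of them share a neighbourhood. The share was alike across Alu ages, with 0.529% of AluJ, 0.512% of AluS and 0.491% of AluY loci. Over all loci tested, 0.299% were lower and 0.0865% higher. L1 gave 39 lower (0.249%) and 16 higher (0.102%) loci of 15679. Among young L1 (L1HS and L1PA2 to L1PA8) 5 were lower (0.208%) and 7 higher (0.291%) of 2402. Among older L1 34 were lower (0.256%) and 9 higher (0.0678%) of 13277. ERV elements had 8 lower (0.156%) and 9 higher (0.175%) loci of 5135. MIR and other SINEs had 18 lower (0.285%) and 3 higher (0.0475%) of 6321. In small classes a few loci made larger shares. SVA had 4 higher (1.53%) and 1 lower (0.383%) of 261, tRNA 2 higher of 154 (1.3%), rRNA 1 higher of 65 (1.54%), small RNA 1 higher of 148 (0.676%) and satellites 2 lower of 131 (1.53%). Of these, 3 of the 4 higher SVA loci, the 1 lower SVA locus and 1 of the 2 tRNA loci had a nearly empty group. Such a group had 3 counts or fewer in both libraries. The classes were not tested against each other.

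Over whole classes, the log2 ratio of ratios of the class share of the library was -0.17 for Alu, 0.07 for L1 and -0.32 for rRNA, whose share in the DMSO replicates at 6 h was 21.1% and 11.3%. For small RNA the share was 17.7% and 20.6% in DMSO at 6 h, 22.2% and 23.8% in 5-FU at 6 h, 22.1% and 17.8% in DMSO at 24 h, and 32.9% and 24.0% in 5-FU at 24 h. The 5-FU libraries at 24 h were the highest, though replicate 2 lay only just above 5-FU at 6 h. tRNA had the largest value, 0.49, from 0.137% and 0.142% in DMSO and 0.128% and 0.141% in 5-FU at 6 h, and 0.151% and 0.133% in DMSO and 0.196% and 0.189% in 5-FU at 24 h. The class shares were not tested.

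Summed over all copies of a name, 12 of 1078 repeat names (1.11%) had an effect at 24 h that differed from that at 6 h, with 9 higher (0.835%) and 3 lower (0.278%). Their edgeR adjusted p ran from 0.000444 to 0.036. At 6 h 0 names were called against DMSO, and at 24 h 130 (12.1%). With DESeq2's size factors in place of TMM 7 were called, 4 higher and 3 lower, and the median difference over all names was 0.00 against 0.11 with TMM. DESeq2 itself called 20, with 9 higher and 11 lower. The count was 160 without replicate 1 of 5-FU at 24 h, 45 without replicate 2, and 1 to 6 without any other 1 of the libraries.

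Of the 9 higher names, 4 (BC200, HY1, HY3 and tRNA-Ala-GCA) are of small RNAs made by RNA polymerase III. The tRNA and small RNA classes, of which not all members are made by that polymerase, held 75 of the 1078 names tested (6.96%). A positive difference was found for 61 of the 75. It was not particular to them, with 102 of 129 L1, 64 of 79 MaLR and 322 of 475 ERV names also positive. Of the Alu names 6 of 40 were. Whether these names were called more often than others was not tested. BC200 had 2446 and 2623 CPM in DMSO at 6 h, 3923 and 4110 in 5-FU at 6 h, 2298 and 2051 in DMSO at 24 h, and 16847 and 10999 in 5-FU at 24 h. Its difference was 2.01 (SE 0.22), and 99.7% of its counts came from the copy on chromosome 2. HY1, a Y RNA bound by the Ro60 protein, had 702 and 582, 536 and 704, 464 and 480, and 1363 and 967 CPM in the same order, a late-only difference of 1.35 (SE 0.26). The copy on chromosome 7 (148684229 to 148684340) held 95.2% of it.

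HY3, another Y RNA, rose by name although no single copy of it was called. Its sums were 1458 and 1241 CPM in DMSO at 6 h, 1086 and 1453 in 5-FU at 6 h, 945 and 999.97 in DMSO at 24 h, and 2433 and 2195 in 5-FU at 24 h, a difference of 1.34 (SE 0.21, edgeR adjusted p = 0.00629). The copy on chromosome 7 (148680847 to 148680947) had 6413 and 5904 counts in DMSO at 6 h, 4414 and 124 in 5-FU at 6 h, 4377 and 5418 in DMSO at 24 h, and 224 and 251 in 5-FU at 24 h. The copy on chromosome 12 (42848522 to 42848621) had 197 and 3, 0 and 6415, 111 and 13, and 9427 and 12804. The counts changed place even between the replicates of 5-FU at 6 h, so the sum by name is the measure to read. At 12 h HY3 by name showed a log2 effect of 0.00. tRNA-Ala-GCA went from 279 and 242 CPM in DMSO and 193 and 209 in 5-FU at 6 h to 210 and 202 in DMSO and 380 and 279 in 5-FU at 24 h, a difference of 1.05 (SE 0.21).

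The other 5 higher names were retroviral or LTR repeats. MLT1A-int, an internal part of a MaLR element, had the tightest replicates, with 80.7 and 79.4 CPM in DMSO at 6 h, 81.8 and 80.4 in 5-FU at 6 h, 78.8 and 78.7 in DMSO at 24 h, and 151 and 148 in 5-FU at 24 h, a difference of 0.91 (SE 0.14). LTR1D had a difference of 1.24 (SE 0.24), MER61-int of 0.92 (SE 0.18), MER4-int of 0.76 (SE 0.16) and HERVL74-int of 0.74 (SE 0.16). The 3 lower names were LTR10B1, with 54.3 and 65.3, 55.4 and 54.3, 109 and 92.6, and 37.4 and 30.3 CPM in the same order and a difference of -1.46 (SE 0.23), L1MEa with -1.18 (SE 0.23) and MER68-int with -0.69 (SE 0.13).

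Without its most abundant copy 0 of the 12 names was still called, and 9 kept their sign. In that fit edgeR called 1 of 1074 names, with 68 at an unadjusted p under 0.05 against 119 (11.0%) in the full sums. BC200, LTR1D and L1MEa came to -0.02, -0.02 and 0.03. MER61-int and MER4-int, whose most abundant copies hold 22.3% and 16.6% of their counts, kept differences of 0.70 (SE 0.19) and 0.64 (SE 0.17), and MER68-int one of -0.56 (SE 0.16). HY1, LTR10B1, MLT1A-int and HERVL74-int came to 0.27 (SE 0.26), -0.53 (SE 0.27), 0.50 (SE 0.24) and 0.46 (SE 0.17). For HY3 and tRNA-Ala-GCA the difference was larger without that copy, at 1.67 (SE 1.07) and 1.91 (SE 0.60), with wider errors. That copy holds 96.2% of the tRNA-Ala-GCA counts, so the rest is a small sum. For HY3 the rest keeps the chromosome 12 copy, whose counts changed place with those of the copy left out.

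**Figure D5:**
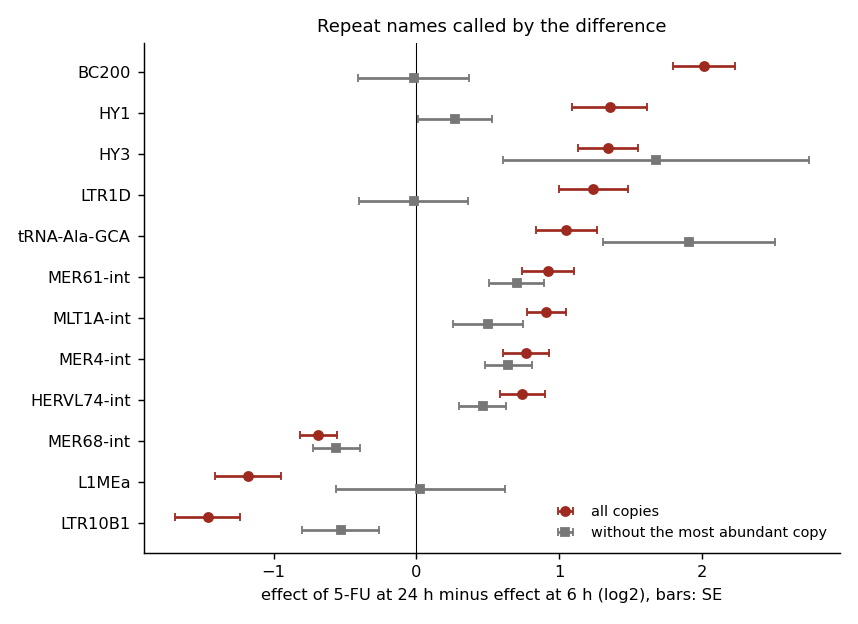
Effect of 5-FU at 24 h minus its effect at 6 h (x axis, log2, bars are SE) for the 12 called repeat names (y axis), over all copies and without the most abundant copy. Without that copy BC200, LTR1D and L1MEa lie at -0.02, -0.02 and 0.03, and MER61-int, MER4-int and MER68-int change little.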

How the data were processed

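Total RNA of IMR90 cells was sequenced with a stranded kit, per the labels' protocols. Bowtie2, DESeq2, edgeR, Trimmomatic (0.32), cutadapt (1.10) and the build hg19 are listed in the submitters' processing notes, with no role stated. The deposited values are the authors' raw counts per repeat copy, named by repeat and position. The rule for reads that match several copies and the meaning of the 2 numbers after each repeat name are not given in the sources used here.

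All 14 libraries of the 5-FU table (7 groups of 2, groups from the sample labels) entered 1 edgeR 4.0.16 fit (R 4.3.3, limma 3.58.1), after filterByExpr, with TMM scaling and a mean per group. For repeat names, library sizes and TMM factors came from all copies. The difference was tested with glmQLFTest and adjusted by Benjamini-Hochberg over all features, and a call is an adjusted p under 0.05. Nutlin effects came from a separate fit of the Nutlin table (21328 loci tested), where 2 identical untreated columns entered the scaling and fit as 1. Loci named were the 3 with the smallest p in each direction of each pattern, the leading locus of the 6 largest neighbourhoods and of each class, and every called repeat name. Others named (pairs of copies, L1ME3A) were chosen after their values were seen. The members and lists were chosen with earlier results of these data known. Alternatives were DESeq2 1.42.0, other scalings, filters and thresholds, a replicate block and each library left out.

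On counts simulated from these libraries, the fit of 63602 loci recovered 2%, 10%, 16% and 52% of changes of 2, 4, 8 and 16-fold in the difference, and 21.6% of its 51 calls were false. For the 1078 names it recovered 82%, 98%, 100% and 100%, and 2.56% of 195 calls were false. Tables were made with Python 3.11.15, pandas 2.3.3 and numpy 2.4.6, and plots with matplotlib 3.10.9. RNA sequences are not reported here. Genes at the hg19 positions were not analysed here.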

Additional observations from a re-analysis of the deposited data

Results flagged for a closer look

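The loci and names below were called by the edgeR test of the difference between 24 h and 6 h. They are given with the adjusted p, and the limits stated above still apply to them. Late-only lower loci were AluSx and L1PA15 with 6.03e-07 each, SVA_D with 4.74e-05, AluSp (chromosome 19) with 0.000100, L2b with 0.000177, AmnSINE2 (chromosome 2, 234749848 to 234749939) with 0.000193, MER21C (chromosome 18) with 0.000283, MIR (chromosome 1) with 0.000285, L2 (chromosome 10) with 0.000507, L2a with 0.000900, AluSq2 (chromosome 17) with 0.00221, MER5B with 0.00412, MLT1J with 0.00537 and a BSR/Beta satellite with 0.0106. Of these, AmnSINE2 had 24.6 and 23.0 CPM in DMSO and 24.6 and 25.3 in 5-FU at 6 h, then 62.0 and 53.3 in DMSO and 8.57 and 4.18 in 5-FU at 24 h. MER21C, an LTR, had 15.8 and 18.2, 18.9 and 17.7, 45.3 and 36, and 6.02 and 4.03 CPM in the same order.

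Late-only higher loci were FLAM_C with 0.00013, LTR12C with 0.000821, MIRb (chromosome 6) with 0.00537 and 5S with 0.0233. The calls of LTR12C and 5S were lost once alike copies were summed, as given above. Growing loci were BC200 with 0.00621, ERVL-B4-int with 0.0102 and L1MB7 (chromosome 16) with 0.0205 among those higher, and AluSx1 (chromosome 17) with 0.00134, MIRb (chromosome 1) with 0.0019 and L1M5 with 0.0162 among those lower. The early-only loci were L1HS with 0.0233, L1MB7 (chromosome 15) with 0.00648 and AluSq2 (chromosome 20) with 0.0116.

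Effects of opposite sign were found at AluSz (chromosome 1) with 1.79e-05, FLAM_A (chromosome 15, 41673058 to 41673105) with 0.000164, AluSx (chromosome X, 2405410 to 2405670) with 0.000987, SVA_F (chromosome 21, 18663826 to 18665426) with 0.0012, AluSx1 (chromosome 15, 64655941 to 64656222) with 0.0019, L1PB1 with 0.00338 and a tRNA-Ala-GCA copy (chromosome 6, 28726141 to 28726212) with 0.0407. SVA_F had 2.91 and 27.3 CPM in DMSO and 1.93 and 0.951 in 5-FU at 6 h, then 0 and 3.44 in DMSO and 69.3 and 31.1 in 5-FU at 24 h, so its DMSO replicates were far apart. The AluSx copy on chromosome X had 103 and 115 counts in DMSO at 6 h, 81 in replicate 2 of 5-FU at 24 h and 0 in the other 5 of the 8 libraries. The loci under no pattern were AluY (chromosome 2) with 0.0187, AluSz with 0.0217 (chromosome 7), 0.0232 (chromosome 16) and 0.0441 (chromosome 4), L1ME3B with 0.0285 and SVA_E with 0.0288. Of the loci under no pattern, 6 of 6 higher and 2 of 3 lower had a group at 3 counts or fewer in both libraries. AluY had 77 and 14 counts in DMSO and 0 and 0 in 5-FU at 6 h, then 0 and 0 in DMSO and 0 and 37 in 5-FU at 24 h. Its 24 h effect thus rests on 1 library. L1ME3B (chromosome 9, 42247948 to 42249533) had 86 and 9 counts in DMSO and 2 and 0 in 5-FU at 6 h, then 0 and 0 in DMSO and 0 and 65 in 5-FU at 24 h.

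Among repeat names, the adjusted p was 0.000444 for BC200, 0.00629 for MLT1A-int, LTR10B1 and HY3, 0.0252 for MER68-int, HY1, LTR1D, L1MEa and MER61-int, 0.0308 for tRNA-Ala-GCA and 0.036 for MER4-int and HERVL74-int. Each of the 12 names lost its call or turned in at least 1 alternative. The call was lost for MER4-int in 16 of 21 alternatives, HERVL74-int in 14 of 21, tRNA-Ala-GCA in 12 of 20, LTR1D in 11 of 21 with its sign turned in 1 more, and L1MEa in 10 of 21 likewise with 1 more. MER61-int and MER68-int lost it in 10 of 21 each, and HY1 in 9 of 20. Among loci it was lost for AluSz on chromosome 4 in 12 of 18, L1ME3B in 10 of 19, AluY and L1HS in 9 of 19 each and the tRNA-Ala-GCA copy in 9 of 18.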

How the results depend on the processing

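The number of called loci, 245 in the fit reported, was 485 with DESeq2 (124 higher, 361 lower), 430 with at least 10 counts in each of the 8 libraries (a filter that removes loci that fell), 501 with no filter, 135 with the 8 libraries alone, 100 at an adjusted p under 0.01 and 1418 for 5-FU at 24 h against 6 h with no DMSO control. Leaving out 1 library gave 122 to 555. DESeq2 called 200 of the 245 and 152 of the 170 late-only lower loci, and all 245 kept their sign there and with DESeq2's size factors in edgeR, which called 285. In the order DESeq2, 10 counts, 8 libraries and 0.01, late-only loci numbered 428, 366, 106 and 82, and growing loci 31, 36, 2 and 3. With no filter 23 loci were growing and 40 early-only. Early-only loci numbered 5 with the 8 libraries, 1 at 0.01, 0 among loci above 3 counts in each group and 5 with alike copies summed (the last 2 settings were chosen after seeing the data). Leaving out 1 library gave 92 to 421 late-only, 1 to 27 growing and 1 to 6 early-only loci. TMM factors from filtered loci are the setting reported for loci, so they give no alternative there.

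Called names, 12 in the fit reported, numbered 20 with DESeq2, 7 with DESeq2's size factors, 7 with TMM factors from filtered names, 5 with library size alone, 4 with the 8 libraries, 7 without structural RNA, 1 without the most abundant copy, 4 at an adjusted p under 0.01, 7 with an absolute log2 of at least 1, 57 with no DMSO control, and 1 to 160 with 1 library left out. The sign turned without the most abundant copy for BC200 (-0.0204), LTR1D (-0.0174) and L1MEa (0.0282), and with no DMSO control for L1MB7 on chromosome 15 (0.0806) and AluSq2 on chromosome 20 (0.0154). The causes of these changes were not tested, beyond the smaller sums and the missing controls by which these settings are made.

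With the replicate number as a block, 210 loci, 10 names and 5 early-only loci were called. Deviations of same-numbered libraries correlated at -0.039 to 0.139, so the numbers were not taken to pair them. The median SE over all loci was 0.974, and depth was not separated from the spread between the 2 libraries of a group (chi-square per degree of freedom of 3.09 to 8.90). The Nutlin counts without the untreated column were chosen after seeing the data.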
